A study of Mus musculus with 64 samples.

Results

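Col6a3, Gm1698, Cd209c, Ky, Ctsh, Poteg, Clec2g, Cdh12, 2610005L07Rik and 6820431F20Rik are 10 of the 26385 genes listed in the RNA-Seq tables, and were chosen because their levels were much higher in Morc1tg/tg than in Morc1tg/+ germ cells at P2.5 or P10.5 (P, postnatal day). No numerical limit was set for that choice, and the P2.5 and P10.5 germ cell values are therefore given below as a description, without a test. The question addressed here was whether the same genes were also higher in germ cells before birth, in whole testis, and in 2 other lines of mice with defects in germline silencing. The RNA came from 20 libraries of sorted male germ cells and 27 libraries of whole testis, each made from 1 mouse.

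The Morc1tg allele is an insertion of a tyrosinase transgene on the FVB/N background that removes exons 2 to 4 of Morc1. Germ cells of Morc1tg/tg mice (labelled KO) and Morc1tg/+ controls (labelled het) were taken at E16.5 (E, embryonic day; 2 libraries per genotype), E18.5 (2 per genotype), P2.5 (2 Morc1tg/tg and 3 Morc1tg/+) and P10.5 (3 Morc1tg/tg and 4 Morc1tg/+). From E16.5 to P2.5 the cells were sorted by the green fluorescence of an Oct4-IRES-eGfp reporter, in mice of mixed background, and at P10.5 by low side scatter, high EPCAM and absence of the H2-Kq antigen, so both the sort and the background differ between P2.5 and P10.5. Whole testes of the Morc1 line were taken at P10.5 (3 Morc1tg/tg, 2 Morc1tg/+ and 1 Morc1+/+, with 1 further Morc1tg/+ and 1 further Morc1+/+ library from a preliminary batch) and at P14.5 (3 Morc1tg/tg and 3 Morc1tg/+). Whole testes of the Dnmt3l line (3 Dnmt3l-/-, 3 Dnmt3l+/- and 3 Dnmt3l+/+) and of the Miwi2 line (2 labelled Miwi2-/- and 2 Miwi2+/-) were taken at P10.5. No strain was found for these lines in the sources used here. In mm9, 5 of 10 members lie on chromosome 8: Cd209c (chr8:3940222-3954746, minus strand), 6820431F20Rik (chr8:19858191-19893124, minus), 2610005L07Rik (chr8:19863337-20020413, minus), Poteg (chr8:28558142-28605644, plus) and Gm1698 (chr8:28714823-28730924, plus). Ctsh (chr9:89948990-89970927) and Ky (chr9:102408078-102448568) share the plus strand of chromosome 9. Col6a3 (chr1:92663435-92740529, minus), Clec2g (chr6:128884399-128970537, plus) and Cdh12 (chr15:21041207-21519288, plus) stand alone, and no member lies on chromosome 16, which holds Morc1.

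MORC1 is a nuclear protein with a GHKL ATPase domain, expressed in male germ cells and needed to keep transposable elements silent there. Around birth, fetal male germ cells (gonocytes) are arrested in division and regain the DNA methylation that was erased earlier, through the DNMT3A and DNMT3L complex and, at a set of transposons, through the PIWI protein MIWI2 and its small RNAs. They then resume division and give rise to spermatogonia. Col6a3 encodes the alpha-3 chain of collagen VI, a filament of the extracellular matrix, and Cdh12 a type II cadherin best known from the brain. Cd209c is a C-type lectin of the mouse family related to human DC-SIGN, and Clec2g a C-type lectin-like gene of the natural killer gene complex. Ctsh encodes cathepsin H, a lysosomal aminopeptidase, and Ky the kyphoscoliosis peptidase of skeletal muscle. Poteg belongs to the POTE ankyrin domain family. Gm1698, 2610005L07Rik and 6820431F20Rik are predicted or cDNA-defined genes without an established function.

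A window of 300 bases around the gene start, most of it upstream, was read from RefSeq for 6 of 10 members (build GRCm38.p6). To ask how much of each was shared with other places in the genome, the window was divided into 12 words of 24 bases, and every exact match of each word, on either strand, was counted in mm9. Cd209c stood at one end, with 11 of 12 words present at 10 or more places (median 134.5 places, at most 388). Clec2g had 3 such words, one of them present at 20327 places. Ky stood at the other end, with every word present once and with 31 CG dinucleotides. Cd209c and Clec2g are printed as the windows with words at 10 or more places, and Ky as the one with the most CG dinucleotides; capitals mark the repeated words for Cd209c and Clec2g and the CG dinucleotides for Ky.
Cd209c, chr8:3946814-3947113, minus strand: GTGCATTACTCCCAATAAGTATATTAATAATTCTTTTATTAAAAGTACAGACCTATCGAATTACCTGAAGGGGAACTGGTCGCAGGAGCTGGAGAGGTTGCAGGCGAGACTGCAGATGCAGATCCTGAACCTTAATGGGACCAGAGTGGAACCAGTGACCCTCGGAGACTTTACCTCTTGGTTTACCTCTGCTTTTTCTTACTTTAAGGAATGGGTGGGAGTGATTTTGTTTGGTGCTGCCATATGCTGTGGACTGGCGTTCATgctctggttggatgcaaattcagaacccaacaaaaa
Clec2g, chr6:128934131-128934430, plus strand: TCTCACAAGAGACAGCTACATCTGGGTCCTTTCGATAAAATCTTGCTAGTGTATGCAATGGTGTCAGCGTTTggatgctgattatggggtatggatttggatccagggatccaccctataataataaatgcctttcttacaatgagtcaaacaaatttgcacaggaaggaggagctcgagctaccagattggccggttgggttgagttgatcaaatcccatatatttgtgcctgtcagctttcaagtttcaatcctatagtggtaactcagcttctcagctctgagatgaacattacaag
Ky, chr9:102505888-102506187, plus strand: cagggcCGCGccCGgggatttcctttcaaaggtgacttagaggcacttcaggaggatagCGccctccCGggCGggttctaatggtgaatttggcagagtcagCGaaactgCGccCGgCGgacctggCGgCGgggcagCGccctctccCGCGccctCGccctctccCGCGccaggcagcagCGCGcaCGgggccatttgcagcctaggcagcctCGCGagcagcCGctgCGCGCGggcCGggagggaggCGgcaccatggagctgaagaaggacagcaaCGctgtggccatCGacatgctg
Of all 32851 promoters in the RefSeq table, 3.896% held at least 6 words at 10 or more places and 11.26% held any such word. As many CG dinucleotides as in Ky were found in 10.56% of promoters. The other windows read, of Col6a3, Gm1698 and Cdh12, held no word at 10 or more places and held 3, 0 and 9 CG dinucleotides. A repeated word is a description of the sequence, and whether it has a part in the levels below was not tested.

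The germ cell libraries held 2413679 to 14918478 reads assigned to genes, and the whole testis libraries 22509570 to 42137954. Morc1 was lower in Morc1tg/tg libraries at every stage and in both tissues (mean 9.72 against 44.5 RPKM, read counts scaled to exon length and mapped reads, at E16.5 and 2.26 against 7.65 RPKM in P10.5 testis), and in 5 of 6 comparisons passed the test, with the exception of E18.5 germ cells (adjusted p = 0.1395). Dnmt3l was lower in Dnmt3l-/- testis (0.0412 against 0.679 RPKM, adjusted p = 1.02e-05). Piwil4, which encodes MIWI2, was higher in the libraries labelled Miwi2-/- (11.1 against 6.83 RPKM, adjusted p = 0.0007464), so its RNA does not check those labels, and the wording "labelled Miwi2-/-" is kept throughout.

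Reads were counted only where they mapped to 1 place, so a gene with copies elsewhere is measured by part of its exons. Of the 50-base stretches of the exons, 100.0% were unique in mm9 for Gm1698, Ky, Poteg and Cdh12, 99.7% for Ctsh, 98.5% for Col6a3 and 92.9% for Clec2g. For Cd209c the share was 44.0%. It was 26.6% for 2610005L07Rik and 15.2% for 6820431F20Rik, genes that overlap on the minus strand of chromosome 8 and have no exonic base in common by position, but share 3071 stretches by sequence. The values of this pair are therefore uncertain, and they are not independent of each other.

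**Figure D1:**
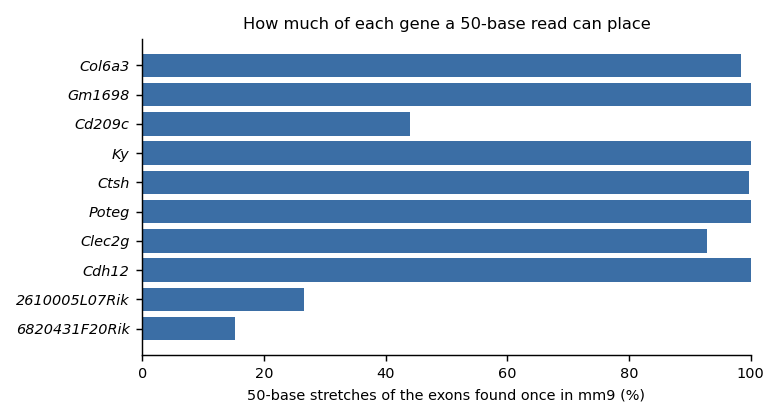
Share of the 50-base stretches of each member's exons found once, by exact match, in the mm9 genome, in percent, as one bar per gene. Cd209c (44.0%), 2610005L07Rik (26.6%) and 6820431F20Rik (15.2%) stand below the other members, which lie between 92.9% and 100.0%.

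At P2.5, the germ cells of both Morc1tg/tg mice held more RNA of each of the 10 genes than those of all 3 Morc1tg/+ mice. Over all 14413 genes tested in this contrast, 0.0416% were called higher; nothing is read from the members' count, since this contrast chose them. Gm1698 was at 0 in all 3 Morc1tg/+ libraries and at 1.43 and 2.90 RPKM in the Morc1tg/tg libraries. With 83 reads against 0, the level was at least 48.2-fold higher, when the floor is set at 3 reads over the control group. Poteg was likewise at 0 in the controls and at 4.61 and 1.14 RPKM in the mutants, at least 30.8-fold higher (53 reads).

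Ctsh, Clec2g and Cdh12 were nearly silent in the P2.5 controls. Ctsh gave 0, 0.108 and 0 RPKM there against 14.7 and 4.08 RPKM in Morc1tg/tg (3 reads against 285, a ratio of 166 after scaling to depth, with an exact binomial 95% interval of 56.1 to 808). Clec2g gave 0, 0 and 0.189 RPKM against 2.50 and 10.8 RPKM, and Cdh12 0, 0 and 0.0165 RPKM against 1.55 and 2.74 RPKM (1 read against 196, ratio 342, interval 60.6 to 13562). These intervals cover counting error only, and the Morc1tg/tg libraries of Ctsh and Clec2g differed from each other by several fold, in opposite directions. Cd209c had the highest levels of the members, at 35.3 and 96.8 RPKM against 0, 1.91 and 3.79 RPKM.

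The remaining genes had more reads in the P2.5 controls than Ctsh, Clec2g and Cdh12. For Col6a3 these were still few, at 3 to 9 per library, so its ratio rests on a low control level. Col6a3 stood at 0.223, 0.0328 and 0.0726 RPKM in Morc1tg/+ and at 5.30 and 3.50 RPKM in Morc1tg/tg, a ratio of means of 40.2. Ky stood at 0, 0.162 and 0.393 RPKM against 3.65 and 4.24 RPKM (ratio 21.3). The pair of overlapping genes had the smallest ratios, 6.76 for 2610005L07Rik (means 1.95 and 13.2 RPKM) and 7.11 for 6820431F20Rik (0.998 and 7.09 RPKM).

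At P10.5, in cells sorted by surface antigens and at a depth of 7474627 to 9641942 reads on genes, the groups were again apart for all 10 genes. Over all 14019 genes tested, 6.43% were called higher and 12.2% in either direction, given here only as the background of a contrast that chose the members. Poteg stood at 0 in all 4 Morc1tg/+ libraries and at 10.6, 6.90 and 11.6 RPKM in the Morc1tg/tg libraries, at least 331-fold higher (783 reads). Gm1698 was at 0.0521, 0.0238, 0.0267 and 0 RPKM against 11.5, 10.9 and 12.0 RPKM (4 reads against 1271, ratio of means 448). Cd209c was at 3.77, 3.10, 3.35 and 1.42 RPKM in the controls and 40.5, 47.0 and 45.4 RPKM in the mutants (ratio 15.2). Gm1698 and Poteg, neighbours 109179 bases apart on chromosome 8, thus held at most 2 reads in any control library and at least 196 in any mutant library.

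Ctsh stood at 0.198, 0.866, 0.226 and 0.316 RPKM in the P10.5 controls and at 13.5, 15.9 and 11.8 RPKM in the mutants (ratio of means 34.2). Ky stood at 1.05, 0.516, 0.998 and 0.414 RPKM against 8.96, 10.54 and 10.1 RPKM (ratio 13.3). Col6a3 stood at 0.0805, 0.0798, 0.138 and 0.0148 RPKM against 6.11, 7.85 and 8.80 RPKM (ratio 97.1). In each case the lowest mutant library lay several fold above the highest control. Clec2g and Cdh12 each had reads in 1 of 4 control libraries only (3 reads against 392, ratio 166, interval 56.3 to 807, and 1 against 138, ratio 175, interval 30.9 to 6960), with mutant levels of 2.29, 3.74 and 3.94 RPKM for Clec2g, which overlap those at P2.5, and of 0.281, 0.7095 and 0.530 RPKM for Cdh12, which lie below them. 2610005L07Rik (5.16 against 23.99 RPKM) and 6820431F20Rik (1.52 against 8.34 RPKM) again had the smallest ratios, 4.65 and 5.48.

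**Figure D2:**
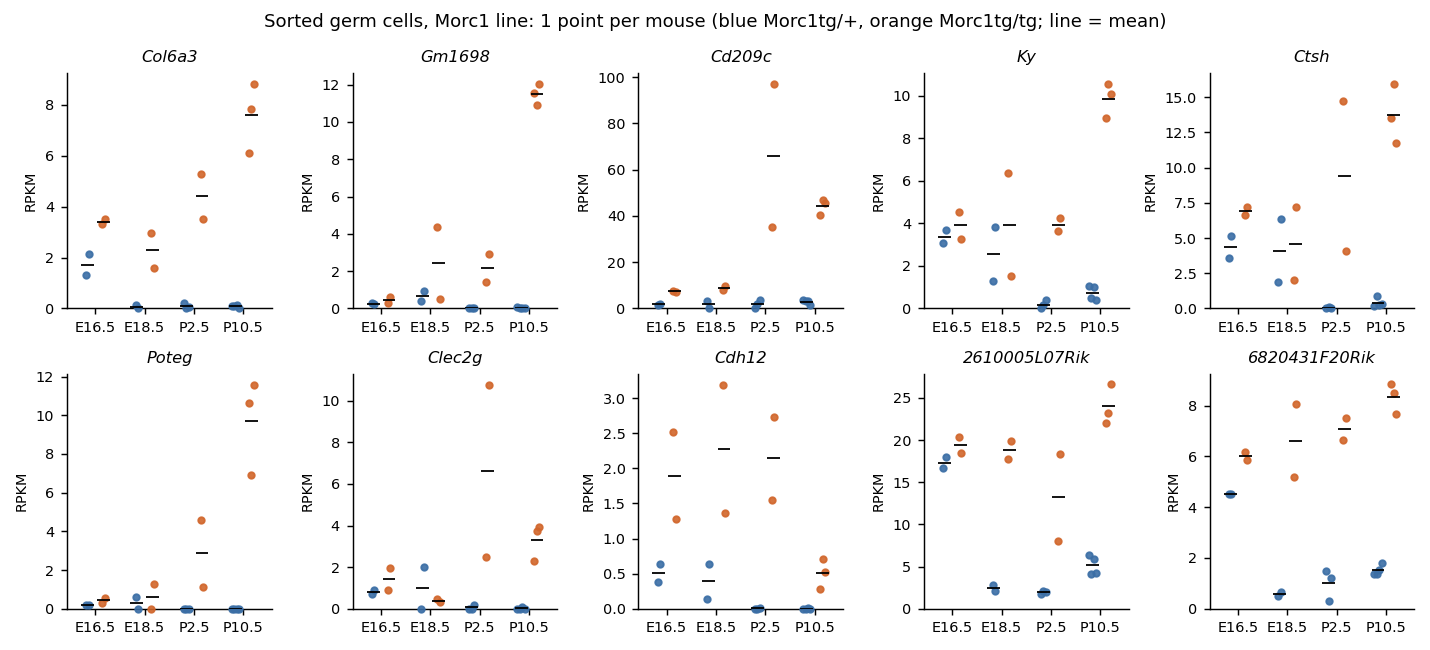
RPKM of each member in sorted germ cells by stage, with 1 point per library (1 mouse), blue for Morc1tg/+ and orange for Morc1tg/tg, and a line at the mean of each group; each panel has its own linear axis from 0. The groups do not overlap at P2.5 and P10.5, while at E16.5 and E18.5 some panels overlap, such as Ky, and others do not, such as Cd209c (7.73 and 6.97 against 1.68 and 1.99 RPKM at E16.5).

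The purity of these cells was read from lists of marker genes. At P10.5 the germ cell list of 8 genes summed to 406 to 491 RPKM in Morc1tg/+ and 468 to 530 RPKM in Morc1tg/tg, with Ddx4 and Dnd1 called higher and Tex11 lower. The endothelial sums, 3.45 to 4.18 against 4.49 to 5.38 RPKM, did not overlap, and the red blood cell marker Hbb-b1 was called lower (2.16 to 0.218 RPKM, adjusted p = 0.02234). The macrophage list, of interest because lectins and cathepsins are known from such cells, summed to 4.34 to 5.44 RPKM against 4.15 to 6.58 RPKM, with C1qa, Emr1 and Lyz2 at 0 in every library of both genotypes and C1qb also at 0 in the mutants. The peritubular and stromal list, of interest for collagen genes, summed to 11.3 to 13.5 RPKM against 12.0 to 15.1 RPKM, and Col1a1, 1 of its 6 genes tested, was called higher in Morc1tg/tg (6.93 to 9.26 RPKM, adjusted p = 0.01858). Of 7 Sertoli cell markers, Clu and Wt1 were called lower (list sum 60.0 to 103 against 40.8 to 83.0 RPKM). The undifferentiated spermatogonia list was higher in Morc1tg/tg for 4 of 6 genes (115 to 124 against 152 to 183 RPKM), and the list of differentiating spermatogonia and early meiosis was lower for 6 of 7 (188 to 214 against 141 to 147 RPKM); the part of these shifts in the members' levels was not tested. At P2.5, the macrophage sums were 6.95 to 16.3 RPKM against 9.76 and 35.6 RPKM, with Lyz2 at 0 in both genotypes. The Sertoli cell sums, 28.1 to 33.3 RPKM against 37.4 and 42.6 RPKM, and the Leydig cell sums, 2.28 to 4.36 RPKM against 5.66 and 7.98 RPKM, did not overlap. No gene of these 3 lists passed the test at P2.5, and their part in the members' levels was not tested.

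The stages before birth took no part in the choice. At E16.5, 3 of the 9 members tested rose in Morc1tg/tg germ cells, at a stage where 0.385% of all 16630 genes tested were called higher. Cd209c rose from 1.68 and 1.99 RPKM to 7.73 and 6.97 RPKM (log2 fold change 1.92 ± 0.30, SE, n = 2 per group, adjusted p = 0.001584). Cdh12 rose from 0.387 and 0.642 RPKM to 2.52 and 1.28 RPKM (1.82 ± 0.34, adjusted p = 0.01234). Col6a3 rose from 1.30 and 2.14 RPKM to 3.32 and 3.51 RPKM (0.92 ± 0.18, adjusted p = 0.01834). The groups did not overlap for any of these genes, but Cdh12 did not pass without Morc1tg/tg replicate 1 (adjusted p = 0.2679), nor Col6a3 without Morc1tg/+ replicate 1 (adjusted p = 0.2007), and DESeq2 called 1 member of the 5 to which it gave an adjusted p. The red blood cell marker Hbb-b1 was also called higher at E16.5 (8.37 to 27.6 RPKM, adjusted p = 0.01511), the list of 5 such markers summing to 6.69 and 22.6 RPKM against 35.6 and 40.01 RPKM. The sums of differentiating spermatogonia and early meiosis, 85.7 and 99.5 against 108 and 111 RPKM, also stood apart, with no gene of that list called. The part of these markers in the members' values was not tested.

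The other members were present in E16.5 germ cells of both genotypes. Ctsh stood at 3.59 and 5.14 RPKM in Morc1tg/+ and 6.64 and 7.23 RPKM in Morc1tg/tg, apart but not past the threshold (0.59 ± 0.20, adjusted p = 0.3175). Ky stood at 3.08 and 3.67 against 4.56 and 3.27 RPKM, Clec2g at 0.696 and 0.890 against 0.906 and 1.95 RPKM, and Gm1698 at 0.292 and 0.232 against 0.282 and 0.593 RPKM, the groups of Ky and Gm1698 overlapping. Poteg, with 14 reads against 21 in all, was below the limit for testing. 2610005L07Rik was already at 16.7 and 18.0 RPKM in the controls, near the 20.4 and 18.502 RPKM of the mutants. 6820431F20Rik stood apart, at 4.52 and 4.53 against 5.86 and 6.18 RPKM, but did not pass (adjusted p = 0.5938).

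At E18.5, where the libraries were shallow (2698197 to 4007833 reads on genes), 1 of the 8 members tested was called higher, against 0.0416% of 14422 genes. 2610005L07Rik stood at 2.82 and 2.14 RPKM in Morc1tg/+ and 17.8 and 19.9 RPKM in Morc1tg/tg (3.06 ± 0.33, n = 2 per group, adjusted p = 0.0158). 6820431F20Rik had a still larger difference, 0.485 and 0.668 against 5.18 and 8.06 RPKM, that did not pass (3.64 ± 0.56, adjusted p = 0.08775). Nor did Col6a3 pass, with 0.134 and 0 against 2.96 and 1.61 RPKM (5.23 ± 1.05, adjusted p = 0.2413; 8 reads against 209); this gene entered the test through the Morc1tg/tg libraries alone, so the count of members is not read against the share of all genes. Without either Morc1tg/tg library no member was called (adjusted p of 2610005L07Rik 0.08128 and 0.2915), and without Morc1tg/+ replicate 1 or 2 there were 4 and 3, Col6a3 among them, in fits that called 190 and 59 genes.

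Cd209c (3.21 and 0.335 against 7.80 and 9.86 RPKM, 2.54 ± 0.94) and Cdh12 (0.134 and 0.644 against 3.19 and 1.37 RPKM, 2.52 ± 0.95) were apart at E18.5 as at E16.5 but did not pass (adjusted p = 0.7372 for both). Without Morc1tg/+ replicate 1 the log2 fold change was 4.69 for Cd209c and 1.77 for Cdh12, and without replicate 2 it was 1.70 and 4.22. Libraries of both genotypes disagreed at this stage. Ctsh stood at 1.87 and 6.35 RPKM in Morc1tg/+ and 2.01 and 7.20 RPKM in Morc1tg/tg, and Ky at 1.27 and 3.81 against 6.37 and 1.51 RPKM. Gm1698 stood at 0.391 and 0.954 against 4.37 and 0.497 RPKM, and Clec2g at 0 and 2.00 against 0.446 and 0.333 RPKM. Clec2g was too low to test (10 reads in Morc1tg/tg, 38 in Morc1tg/+), and Ctsh, Ky and Gm1698, with overlapping groups, were not called. The germ cell marker list summed to 606 and 658 RPKM in Morc1tg/+ and 493 and 585 RPKM in Morc1tg/tg. No gene of that list passed the test at E18.5, and its part in the members' values was not tested.

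Control germ cells themselves changed between the fetal stages. From E16.5 to E18.5, 2610005L07Rik fell by 2.81 on the log2 scale (SE 0.21, from a mean of 17.3 to 2.48 RPKM, adjusted p = 0.0163) and 6820431F20Rik fell by 2.95 (SE 0.39, from 4.53 to 0.576 RPKM, adjusted p = 0.02114), 2 of the 9 members tested, where 4.25% of 15768 genes were called lower. Col6a3 had a difference of -4.73 ± 1.07 (1.72 to 0.0671 RPKM), not past the threshold (adjusted p = 0.06132). It passed with DESeq2 (adjusted p = 4.395e-05) and in the edgeR fit without a filter (adjusted p = 0.02305). Without E18.5 control replicate 1 or 2 its difference was -10.97 and -3.76. Without either E16.5 control library the call of 6820431F20Rik was lost (adjusted p = 0.08477 and 0.05556). Without E18.5 control replicate 1, 2 members were called higher and 4 lower, and without replicate 2, 7 were called lower, in fits that called 9106 of 17186 and 6392 of 17238 genes. Among the markers, Dazl, Sox9, Pecam1 and Zbtb16 were called higher at E18.5 and Dnd1, Mael and Tdrd1 lower. From E16.5 to E18.5 the sums rose, without overlap, for the endothelial (17.9 and 23.3 to 34.0 and 41.5 RPKM), undifferentiated spermatogonia (14.0 and 19.0 to 25.6 and 36.5), red blood cell (6.69 and 22.6 to 24.7 and 31.7) and peritubular and stromal lists (17.2 and 19.2 to 20.8 and 23.6). They fell for the germ cell (729 and 945 to 606 and 658 RPKM) and macrophage lists (11.9 and 16.4 to 7.37 and 7.93). The part of these shifts in the members' changes was not tested. The mutant means of 2610005L07Rik, 6820431F20Rik and Col6a3 at the 2 stages were 19.4 and 18.8, 6.02 and 6.62, and 3.41 and 2.28 RPKM. The change in the mutants was not tested. For Ky, Ctsh, Clec2g and Cdh12 the control means lay between 0.389 and 4.37 RPKM at both fetal stages and between 0.0055 and 0.185 RPKM at P2.5, a contrast that was not tested because the P2.5 controls took part in the choice.

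In whole testis, most of which is not germ cells at these ages, 9 of 10 members rose in Morc1tg/tg at P10.5, where 6.08% of 15165 genes tested were called higher. Gm1698, Poteg, Clec2g and Cdh12 entered that test through the mutant libraries alone, and so had to differ; the count of members is not read against the share of all genes here or in the whole testis comparisons that follow, where Clec2g and Cdh12 entered in the same way. In whole tissue, fewer cells of a type and less RNA per cell cannot be told apart. Gm1698 was at 0.0133, 0.0264 and 0.0303 RPKM in the controls and at 1.49, 1.56 and 1.54 RPKM in the mutants (log2 fold change 5.97 ± 0.27, n = 3 per group, adjusted p = 1.145e-06; 5 reads against 365). Cd209c was at 0.558, 0.790 and 0.861 RPKM against 6.09, 5.04 and 5.16 RPKM (2.90 ± 0.16, adjusted p = 3.622e-06). Ctsh was at 1.01, 0.726 and 0.910 RPKM against 2.47, 2.58 and 2.33 RPKM (1.49 ± 0.13, adjusted p = 6.75e-05). The mutant libraries of these genes were tightly grouped and far from every control.

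Poteg (1 read in 3 controls against 104 in 3 mutants), Clec2g (2 against 282) and Cdh12 (2 against 57) were all but absent from control testis at P10.5. Scaled to depth, the read ratios were 94.5 for Poteg (exact binomial 95% interval 16.6 to 3768), 128 for Clec2g (35.1 to 1063) and 25.9 for Cdh12 (6.85 to 219), with adjusted p of 5.467e-05, 1.202e-05 and 0.001329. For each of Poteg, Clec2g and Cdh12 all control reads came from 1 library, without which the controls held 0 reads and the adjusted p was 0.0002265 (Morc1tg/+ replicate 2), 5.976e-05 (Morc1+/+ replicate 1) and 0.002655 (Morc1tg/+ replicate 3). Since these genes entered the test through the mutant libraries alone, all these adjusted p-values are a description and add no support.

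The members that whole testis already held in quantity differed less. Ky rose from 2.75, 2.05 and 3.52 RPKM to 6.14, 4.05 and 4.72 RPKM (0.86 ± 0.18, adjusted p = 0.009134). The preliminary libraries, which were not in this fit, held Ky at 5.01 RPKM (Morc1+/+) and 2.46 RPKM (Morc1tg/+). The first of these lay above the mutant values of 4.05 and 4.72 RPKM, so with them the groups overlap. 2610005L07Rik rose from a mean of 12.8 to 16.8 RPKM (0.40 ± 0.06, adjusted p = 0.001004) and 6820431F20Rik from 4.63 to 6.07 RPKM (0.41 ± 0.07, adjusted p = 0.003606). Col6a3, at 20.5, 16.3 and 16.6 RPKM in the controls and 21.8, 19.6 and 22.4 RPKM in the mutants, overlapped and was not called (0.27 ± 0.09, adjusted p = 0.05601). Against the Morc1tg/+ controls alone, without the Morc1+/+ library, its adjusted p was 0.006636.

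At P14.5, when the first wave of germ cells has entered meiosis, 9 of 10 members rose in Morc1tg/tg testis, where 14.8% of 15283 genes were called higher. The count is not read against that share, since Clec2g and Cdh12 entered through the mutant libraries alone. Cd209c rose from 1.69, 1.96 and 2.16 RPKM to 12.1, 15.7 and 12.5 RPKM (2.80 ± 0.16, n = 3 per group, adjusted p = 4.182e-05). Ctsh rose from 1.03, 0.722 and 0.831 RPKM to 3.53, 3.56 and 3.38 RPKM (2.03 ± 0.15, adjusted p = 8.956e-05). Ky rose from 0.139, 0.170 and 0.128 RPKM to 1.98, 1.76 and 2.51 RPKM (3.84 ± 0.20, adjusted p = 4.182e-05). Clec2g rose from 3 reads in all controls to 278 in the mutants (read ratio 96.8, interval 32.8 to 472, adjusted p = 0.0001017), and all 3 control reads came from Morc1tg/+ replicate 1 (adjusted p = 0.0002283 without it). Cdh12 rose from a mean of 0.0123 to 0.142 RPKM (3.48 ± 0.39, adjusted p = 0.0003367; 6 reads against 68).

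Gm1698 and Poteg were no longer silent in control testis at P14.5. Gm1698 stood at 0.671, 0.317 and 1.05 RPKM in Morc1tg/+ and rose to 2.53, 3.36 and 2.57 RPKM (2.07 ± 0.34, adjusted p = 0.002287). Poteg stood at 0.813, 0.395 and 1.06 RPKM against 1.03, 1.06 and 0.897 RPKM, overlapping and not called (adjusted p = 0.3532). Smaller rises were called for Col6a3 (9.05 to 12.3 RPKM, 0.45 ± 0.10, adjusted p = 0.008327), 2610005L07Rik (8.53 to 14.6 RPKM, 0.79 ± 0.075, adjusted p = 0.00018) and 6820431F20Rik (2.93 to 4.72 RPKM, 0.70 ± 0.09, adjusted p = 0.0005253).

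The effect of Morc1 loss differed between P10.5 and P14.5 testis for 4 of 10 members, in a comparison that called 8.22% of 15657 genes in either direction. The difference of the log2 fold changes, P14.5 minus P10.5, was -5.70 for Poteg (adjusted p = 0.0007916), -3.89 for Gm1698 (adjusted p = 0.0023), 2.96 for Ky (adjusted p = 0.0002607) and 0.38 for 2610005L07Rik (adjusted p = 0.02152). Between these ages the mean of Poteg went from 0.0060 to 0.756 RPKM in the controls and from 0.595 to 0.995 RPKM in the mutants, and that of Gm1698 from 0.0233 to 0.679 RPKM and from 1.53 to 2.82 RPKM. The mean of Ky went from 2.77 to 0.146 RPKM in the controls and from 4.97 to 2.09 RPKM in the mutants. Leaving out the Morc1+/+ library ended the call of 2610005L07Rik (adjusted p = 0.0503), and leaving out Morc1tg/+ replicate 2 of P10.5 gave -7.54 for Poteg (adjusted p = 0.00347).

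In Dnmt3l-/- testis at P10.5, 7 of the 8 members tested rose, in a comparison that called 24.9% of 15665 genes higher. Again Clec2g and Cdh12 entered through the mutant libraries alone, and the count is not read against that share. Clec2g stood at 0 RPKM in 4 of 6 controls and at 0.0381 and 0.0338 RPKM in the others, and at 0.956, 1.22 and 1.52 RPKM in the mutants (6 reads against 409; 6.68 ± 0.47, n = 3 and 6, adjusted p = 6.757e-07). All 6 control reads were in Dnmt3l+/- libraries, and the log2 fold change was 5.79 with these as the controls. Cdh12 stood between 0 and 0.0098 RPKM in the controls (median 0.0052) and at 0.125, 0.151 and 0.220 RPKM in the mutants (7 reads against 126; 4.79 ± 0.37, adjusted p = 1.239e-06; 5.50 against Dnmt3l+/+ alone). In Morc1tg/tg testis of the same age their means were 1.14 and 0.0994 RPKM.

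Ky rose from 0.417 to 1.14 RPKM (median 0.758, n = 6) to 2.25, 2.76 and 1.75 RPKM (1.64 ± 0.25, adjusted p = 0.0001839), and Cd209c from 0.263 to 0.4657 RPKM (median 0.379) to 0.642, 0.665 and 0.896 RPKM (1.03 ± 0.22, adjusted p = 0.001639). Lesser rises passed for 6820431F20Rik (3.51 to 4.77 RPKM, 0.49 ± 0.11, adjusted p = 0.002058), Col6a3 (14.9 to 19.7 RPKM, 0.45 ± 0.11, adjusted p = 0.004294, with overlapping groups) and 2610005L07Rik (7.53 to 9.32 RPKM, 0.35 ± 0.07, adjusted p = 0.001636). Ctsh, at 7.13 and 8.76 RPKM, did not pass (0.34 ± 0.15, adjusted p = 0.07598); it did without Dnmt3l+/- replicate 3 (adjusted p = 0.01997) or Dnmt3l-/- replicate 3 (adjusted p = 0.003906). Gm1698 (32 reads in 6 controls, 37 in 3 mutants) and Poteg (1 and 5 reads) were too low to test.

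In the testes labelled Miwi2-/-, 4 of the 9 members tested rose, where 0.725% of 15997 genes were called higher. Clec2g and Cdh12 entered this test through the mutant libraries alone and so had to differ. The count is therefore not read against that share. Clec2g stood at 0.0283 and 0 RPKM in Miwi2+/- and at 1.36 and 1.23 RPKM in the mutants (3 reads against 278, read ratio 92.1, interval 31.2 to 449, n = 2 per group, adjusted p = 2.106e-05). All 3 control reads came from replicate 1, without which the controls held 0 reads. Cdh12 stood at 0.0082 and 0.0119 RPKM against 0.137 and 0.202 RPKM (3.98 ± 0.48, adjusted p = 0.001709). Ky stood at 0.119 and 0.237 RPKM against 0.712 and 0.823 RPKM (2.08 ± 0.25, adjusted p = 0.001643), and Cd209c at 0.555 and 0.619 RPKM against 1.20 and 1.5002 RPKM (1.18 ± 0.22, adjusted p = 0.02869).

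Col6a3 (15.2 and 19.6 RPKM, 0.35 ± 0.08, adjusted p = 0.0616) and 2610005L07Rik (8.71 and 11.2 RPKM, 0.34 ± 0.09, adjusted p = 0.08671) did not pass in the Miwi2 line, although both did in some fits that left out 1 library: Col6a3 without Miwi2+/- replicate 1 or 2 or mutant replicate 2 (adjusted p = 0.0157, 0.03365 and 0.03364), and 2610005L07Rik without Miwi2+/- replicate 2 or mutant replicate 1 (adjusted p = 0.002418 and 0.000972). Each of those fits rests on 3 libraries, with 1 residual degree of freedom. The fit with the replicate number as a block, also with 1 residual degree of freedom, called both as well (log2 fold changes of 0.35 and 0.34). DESeq2, with all libraries, also called both (adjusted p = 0.006654 and 0.04609), and gave no adjusted p to the 4 members called above. Ctsh (6.80 and 6.31 against 6.10 and 6.13 RPKM), Gm1698 (0.131 and 0.289 against 0.118 and 0.181 RPKM) and 6820431F20Rik (3.69 and 3.88 against 4.00 and 4.34 RPKM) were not called. Poteg had 0 reads in the controls and 7 in the mutants, too few to test.

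**Figure D3:**
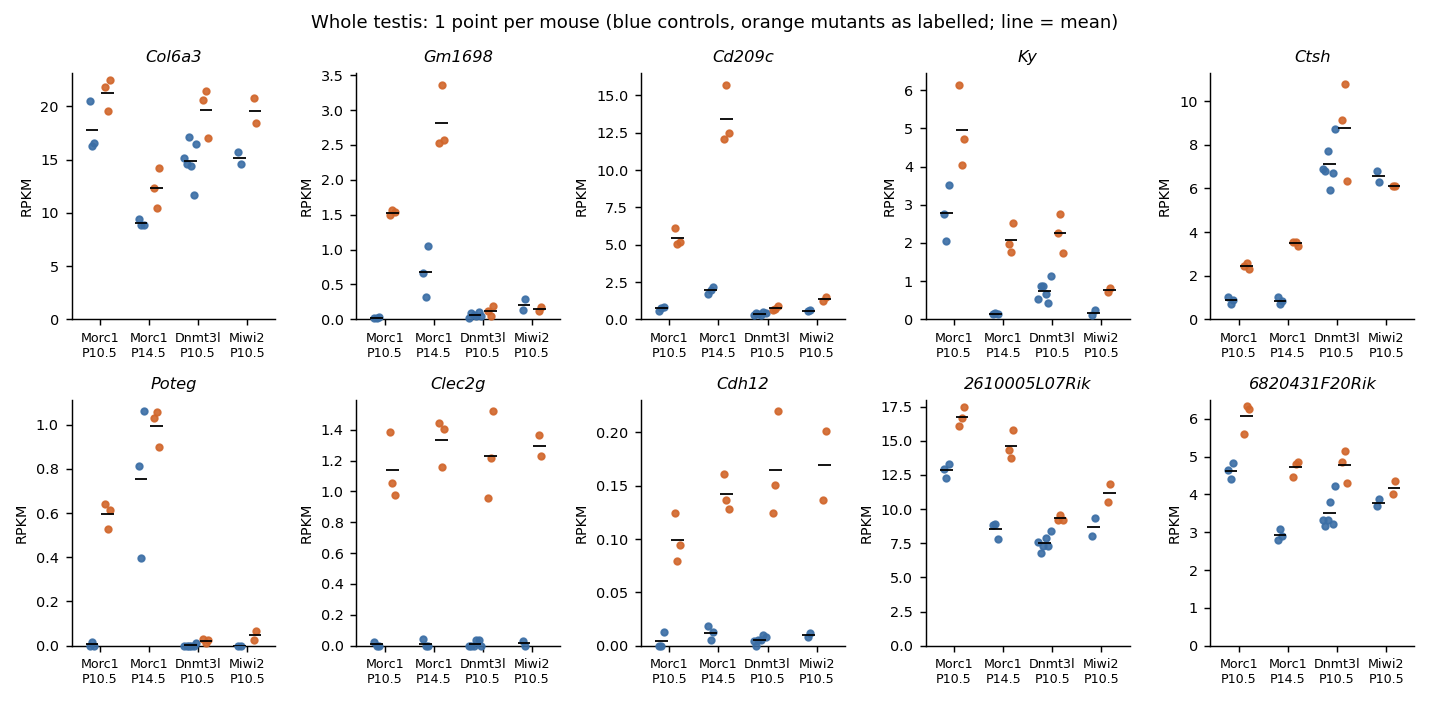
RPKM of each member in whole testis by line and age, with 1 point per library (1 mouse), blue for controls and orange for mutants as labelled, and a line at the group mean; each panel has its own linear axis from 0. Clec2g and Cdh12 are near 0 in the controls and clearly present in the mutants of all 3 lines, while Gm1698 lies above its controls at both ages of the Morc1 line and overlaps them in the other lines.

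The difference between the effects of Morc1 and Dnmt3l loss in P10.5 testis was tested directly. It was positive and past the threshold for 3 of 10 members, against 9.45% of 15902 genes: Gm1698 (4.98, adjusted p = 0.000115), Cd209c (1.82, adjusted p = 0.0003976) and Ctsh (1.10, adjusted p = 0.007987). Gm1698 and Poteg, too low to test in the Dnmt3l line by themselves, entered through the Morc1tg/tg libraries. The count of members is therefore not read against the share of all genes. Ky had a difference of -0.83 that did not pass (adjusted p = 0.124), but did without Dnmt3l+/- replicate 3 (-1.01, adjusted p = 0.03485). The other members did not pass, which does not show that the lines act alike on them.

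Against Miwi2 the same 3 members of 10 had a larger effect in Morc1tg/tg, where 2.29% of 16128 genes were called higher: Gm1698 (6.51, adjusted p = 1.529e-05), Cd209c (1.73, adjusted p = 0.00225) and Ctsh (1.62, adjusted p = 3.505e-05). For Gm1698 the difference was 5.82 without Miwi2+/- replicate 2 (adjusted p = 0.0006392). Ky had a difference of -1.21 (adjusted p = 0.0784), which passed without Morc1tg/+ replicate 2 (-1.38, adjusted p = 0.02182) or Morc1tg/tg replicate 1 (-1.38, adjusted p = 0.02841). Both comparisons use the same Morc1 libraries, and in both the mutation cannot be told apart from other differences between the lines. For Ctsh the controls of the lines stood apart, at a mean of 0.883 RPKM in the Morc1 line, 7.13 RPKM in the Dnmt3l line and 6.55 RPKM in the Miwi2 line, so that the Morc1tg/tg level of 2.46 RPKM lay below the controls of both other lines. The Ky controls stood apart as well, at means of 2.77, 0.743 and 0.178 RPKM.

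**Figure D4:**
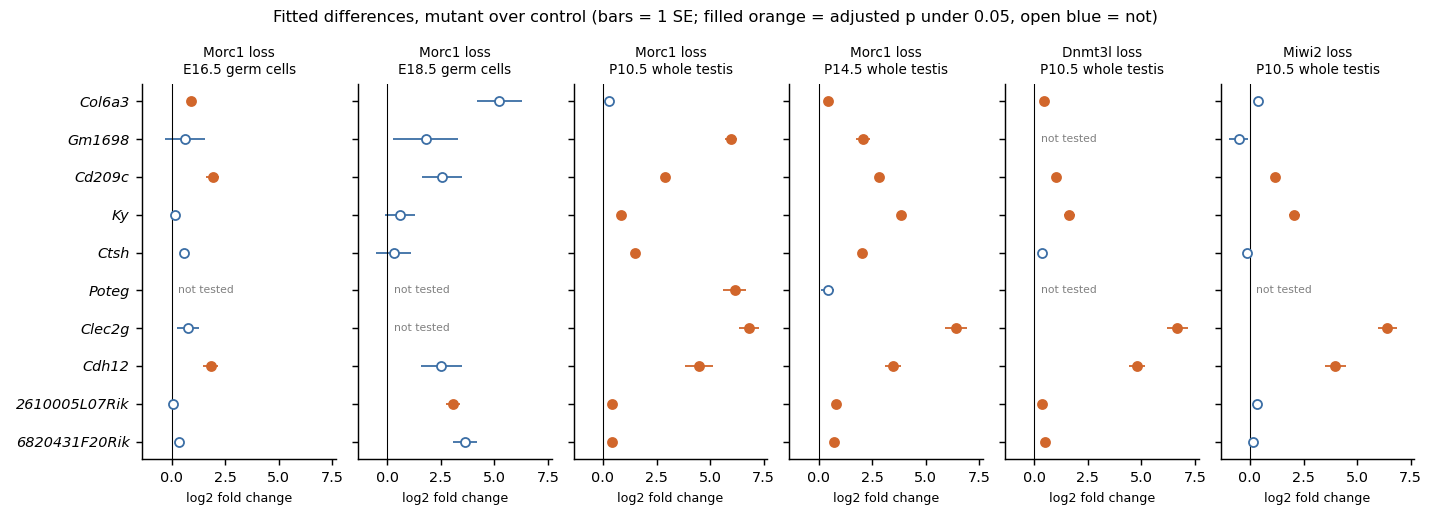
Fitted log2 fold change, mutant over control, of each member in the 6 comparisons that took no part in the choice of the members, with bars of 1 SE; filled orange points passed an adjusted p of 0.05 and open blue points did not. Clec2g and Cdh12 lie far to the right in each whole testis panel, and Poteg (6.14) and Gm1698 (5.97) in that of Morc1 at P10.5.

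The make-up of whole testis moved with these results. Of 8 germ cell markers, 5 were lower in Morc1tg/tg at P10.5 (summed level 339 to 346 RPKM in controls and 207 to 236 RPKM in mutants), 6 at P14.5 (841 to 1082 against 354 to 402 RPKM), 8 in Dnmt3l-/- (416 to 546 against 155 to 189 RPKM) and 0 in the libraries labelled Miwi2-/- (508 and 510 against 477 and 485 RPKM). Of 7 markers of differentiating spermatogonia and early meiosis, 7, 5, 7 and 0 were lower in the same comparisons (369 to 450 against 154 to 190 RPKM at P14.5). Of 7 Sertoli cell markers, 4, 7, 6 and 0 were higher in the same comparisons. Of 9 macrophage markers, 5 were higher in Morc1tg/tg at P10.5 (45.6 to 55.8 against 61.0 to 82.1 RPKM), 0 at P14.5 (73.2 to 122 against 82.5 to 146 RPKM), 3 in Dnmt3l-/- (47.0 to 74.4 against 59.5 to 103 RPKM) and 0 in the Miwi2 line. Of 8 peritubular and stromal markers, 2, 1, 5 and 0 were higher. Of 6 endothelial markers, 2, 0, 3 and 0 were higher, and of 7 Leydig cell markers, 1, 0, 2 and 0. Of 6 markers of undifferentiated spermatogonia, 0, 1, 3 and 0 were higher and 0, 1, 1 and 0 lower. In the Miwi2 line the red blood cell marker Hba-a1 was higher (16.9 to 25.3 RPKM, adjusted p = 0.009727) and the Leydig cell marker Star lower (43.0 to 32.1 RPKM, adjusted p = 0.01276). None of the germ, Sertoli, macrophage and peritubular lists had a gene at 0 in whole testis, and the part of these shifts in the members' values was not tested.

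The genes next to the members were examined for shared changes. Over the 10 members, 34 other genes were the nearest listed genes or overlapped a member, and most were too low to test. In P10.5 germ cells 0 of the 9 tested rose, and 1 fell (Unc5d, a netrin receptor gene 1026265 bases from Gm1698, by 0.61 on the log2 scale, SE 0.14, adjusted p = 0.005093). Of all 14019 genes tested there, 901 were called higher and 811 lower. At P2.5, E16.5 and E18.5 none of the 9, 12 and 11 tested were called. Rasgrf1 and Morf4l1, 27176 and 15582 bases from Ctsh, were among those not called in germ cells. This covers the reads counted on these genes only. The paper reports that part of the imprinted control region of Rasgrf1 was transcribed more and methylated less in Morc1tg/tg, and that region was not examined here. In P10.5 testis of the Morc1 line 2 of 11 rose and 1 fell, where 922 of all 15165 genes tested were called higher and 1404 lower. At P14.5 0 rose and 3 fell, where 2257 of all 15283 genes tested were called higher and 3066 lower. In Dnmt3l-/- 1 of 10 rose and 4 fell, where 3900 of all 15665 genes tested were called higher and 4539 lower. In the Miwi2 line 1 of 12 rose, the receptor tyrosine kinase gene Ephb1, 151055 bases from Ky (from 1.01 to 4.58 RPKM, 2.16 ± 0.10, adjusted p = 7.98e-07). Of all 15997 genes tested in that line, 116 were called higher and 81 lower.

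The members' relatives were read from family lists. In P10.5 germ cells, where 6.43% of all genes tested were called higher and 12.2% either way, none of the 4 other collagen VI chains tested was called (median log2 fold change -0.01, against 0.0032 for all genes), nor the 1 other gene tested of the CD209 cluster, nor the 2 tested of the Clec2 and Klrb1 list (median 0.12). Of the 7 other cathepsins tested, Ctsa alone rose (6.62 to 9.37 RPKM, 0.42 ± 0.12, adjusted p = 0.02187; list median -0.05), and of the 4 other type II cadherins Cdh11 alone (0.236 to 0.630 RPKM, 1.35 ± 0.43, adjusted p = 0.03782). Of 8 sarcomere genes and partners of KY tested, Neb, which encodes nebulin (7.27 to 18.0 RPKM, 1.23 ± 0.07, adjusted p = 1.135e-12), Mypn, which encodes myopalladin (0.724 to 1.43 RPKM, adjusted p = 0.01332), and Actn2, which encodes an alpha-actinin (10.4 to 14.9 RPKM, adjusted p = 0.00506), rose (list median 0.13). At E16.5, Col6a5 rose together with Col6a3 among 5 other collagen VI chains (2.17 to 4.52 RPKM, 0.97 ± 0.17, adjusted p = 0.008101; list median -0.21, against -0.0089 for all genes).

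In whole testis, of 12 other cathepsins tested, 5 rose in Morc1tg/tg at P10.5 (median 0.24, against 0.0083 for all genes), by at most 0.63 on the log2 scale (Ctss), 4 at P14.5, 7 in Dnmt3l-/-, where 2 fell, and 0 in the Miwi2 line. The shares of all genes called higher in these comparisons were 6.08%, 14.8%, 24.9% and 0.725%. Col6a6 rose in both ages of Morc1tg/tg (0.55 ± 0.08, adjusted p = 0.001748, and 0.44 ± 0.08, adjusted p = 0.003526), and Col6a1, Col6a2 and Col6a6 in Dnmt3l-/-. No other gene of the CD209 cluster was called in any comparison; at most 3 of 7 could be tested.

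The genes most alike to each member over the 27 whole testis libraries were sought among the 13751 genes with a mean of at least 0.5 RPKM, by Pearson's r of log2(RPKM + 0.1). The libraries share lines and ages, and r is given as a description. Gm1698 was most alike to Cd209c (r = 0.938), and Poteg to Gm1698 (0.935), Ogfod2 (0.925) and Cd209c (0.903). Cdh12 was most alike to Clec2g (0.970). Cdh12 and Poteg lie under the limit of 0.5 RPKM and were not candidates themselves; among the candidates, Clec2g was most alike to BC051019 (0.962). Col6a3 was most alike to Nrk (0.946), Col5a2 (0.945) and Gucy1a3 (0.943), Ky to Ugcg (0.920), Ctsh to Rab6b (0.914), 2610005L07Rik to Gspt2 (0.929) and 6820431F20Rik to Nsmaf (0.913).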

How the data were processed

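Gene counts and RPKM of 47 RNA-Seq libraries were analysed. The authors trimmed reads to 50 bp, discarded ribosomal reads, kept reads mapping once, with up to 2 mismatches, to mm9 genes and repeats or the genome, and deposited HTSeq counts per gene (unnormalised) with RPKM, the authors' normalisation of those counts to exon length and mapped reads; the submitters' processing notes name Bowtie, HTSeq and SAMtools. The RNA of sorted cells was made into libraries with the Ovation Human FFPE kit after removal of rRNA, and that of whole testis with TruSeq v2, so levels of the tissues are not compared. Groups came from the labels. Lowest chi-square per degree of freedom between libraries of a group was 4.45, so none was counted as a copy.

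Counts were tested with edgeR 4.0.16 (R 4.3.3; TMM, filterByExpr with 10 reads, quasi-likelihood F test; SE, the log2 fold change over the root of F), p-values being adjusted by Benjamini-Hochberg across every tested gene and called below 0.05. Differences of effects were contrasts of 2 log2 fold changes. The P10.5 Morc1 testis controls were 2 Morc1tg/+ and 1 Morc1+/+ libraries, and Dnmt3l+/- and Dnmt3l+/+ were pooled. Fitted fold changes are given for members with an unadjusted p under 0.05. A fold against 0 reads used a floor of 3 reads over the group; ratios over 1 to 3 reads have exact binomial 95% intervals. The scripts were tested on simulated data. Alternatives were DESeq2 1.42.0, RLE normalisation, no filter, the replicate number as a block, other control sets, and leaving out each library.

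Named genes were the members, the targeted genes, the 2 nearest listed genes on each side, family lists and the 3 most alike genes; some results under this rule are not reported here. The members and all lists were chosen with earlier results of these data known. Replicates are mice of a genotype and age. The bisulfite, ChIP and ATAC sequencing and the small RNA reads were not used here.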

Additional observations from a re-analysis of the deposited data

Results flagged for a closer look

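In P10.5 germ cells, 1 of 4 Morc1tg/+ libraries stood apart from the rest for Clec2g (0.0753 RPKM, with the others at 0) and for Cdh12 (0.011 RPKM, with the others at 0), both in replicate 3, on 3 reads and 1 read. With the other libraries at 0, 1 read is enough to flag a library, so these flags carry no error rate. In all, 9 groups were examined.

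Effects that differed between lines or ages, each by a test of the difference itself, were as follows. The log2 fold change in Morc1tg/tg testis exceeded that in Dnmt3l-/- testis by 4.98 for Gm1698, 1.82 for Cd209c and 1.10 for Ctsh. It exceeded that in the testes labelled Miwi2-/- by 6.51, 1.73 and 1.62. The Ctsh controls stood at means of 0.883 RPKM in the Morc1 line, 7.13 RPKM in the Dnmt3l line and 6.55 RPKM in the Miwi2 line. The mutation cannot be told apart from other differences between the lines. Gm1698 entered the difference from Dnmt3l loss through the Morc1tg/tg libraries, its level being too low to test in the Dnmt3l line. In each case all 3 Morc1tg/tg libraries lay above all 3 controls. Between P10.5 and P14.5 testis, the effect of Morc1 loss was smaller at P14.5 for Gm1698 (-3.89) and Poteg (-5.70) and larger for Ky (2.96) and 2610005L07Rik (0.38).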

How the results depend on the processing

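Alternatives were tallied for the members' changes that had an unadjusted p under 0.05 in the tests that took no part in the choice; other changes were not tallied. None of those tallied turned its direction. Values to which DESeq2 gave no adjusted p were also left out, so calls lost in that way do not show. In P10.5 testis of the Morc1 line it gave an adjusted p to 8 of 10 members and called all 8. Some of these had entered the test through the mutant libraries alone. Under RLE normalisation all kept their side of the threshold, while 4 gained a call with the replicate number as a block, 5 without a filter and 6 with DESeq2, and 18 gained and 7 lost one when 1 library was left out. In E18.5 germ cells 1 member was called, against 2 with DESeq2, 3 without a filter and 3 with the replicate block, and between 0 and 4 when 1 library was left out. In the Miwi2 line 4 members were called, while DESeq2 called 2 others, Col6a3 and 2610005L07Rik, the only members to which it gave an adjusted p, and leaving out 1 library 5 to 6. The replicate block called 6 members in the Miwi2 line. At E16.5 DESeq2 called 1 member of the 5 to which it gave an adjusted p, against 3. Leaving out 1 library gave 2 to 3 members at E16.5, 9 to 10 in P10.5 testis, 9 at P14.5, 7 to 8 in Dnmt3l-/-, 3 to 4 for each difference of effects, and 1 to 7 for control E18.5 against E16.5. Over all genes, 7 were called at P2.5, against 21 with DESeq2, 27 without a filter, 30 with the replicate block and 0 to 70 without 1 library; at P10.5, 1712 germ cell genes were called, and 1144 to 1824 without 1 library. Genes called also moved at E16.5 (70, against 110 with DESeq2, 180 without a filter and 174 with the block), at E18.5 (6, against 296, 83 and 46), in P10.5 testis (2326, 1200 with the block), in the Miwi2 line (197, 406 with DESeq2 and 4503 with the block), for Morc1 against Dnmt3l (2797, 1276 with heterozygous controls alone) and for control E18.5 against E16.5 (1220, 2288 with DESeq2). Leaving out 1 library gave 74 to 171 genes at E16.5, 0 to 190 at E18.5, 922 to 2352 in P10.5 testis (922 without Morc1tg/tg replicate 3), 3517 to 5001 at P14.5 (5323 with all libraries), 340 to 952 in the Miwi2 line (952 without Miwi2+/- replicate 2), 1753 to 4021 for Morc1 against Dnmt3l, 494 to 1207 for Morc1 against Miwi2 (1094 with all), 772 to 1746 for P14.5 against P10.5 (1287 with all) and 255 to 9106 for control E18.5 against E16.5. In no comparison with 3 or more pairs did every same-numbered pair deviate together (correlations of 0.339, 0.0366 and -0.102 at P14.5), so the numbers were not taken as pairs there. With 2 libraries per group both pairs give the same value by construction (0.317 in the Miwi2 line). Pairing could not be judged in those comparisons and was not assumed. With 2 libraries per group, as in the Miwi2 line, E16.5 and E18.5, fits without 1 library or with the block have 1 residual degree of freedom, and their p-values lean on the spread pooled over genes. The causes were not tested. Depth was lowest at E18.5 and P2.5; its part in the counts of calls was not tested.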
